A study of Arabidopsis thaliana with 15 samples.

Results

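WRKY6, WRKY22 and WRKY53, which encode transcription factors, and CML37 and CML38, which encode calmodulin-like proteins, were followed in Arabidopsis thaliana roots given naxillin or the auxin NAA. The 5 genes are AT1G62300, AT4G01250, AT4G23810, AT5G42380 and AT1G76650. They were chosen with earlier results of these data known, and were found by name through the platform's probe-to-gene table. That table gave each of them exactly 1 probe set, so that 5 of the 22746 probe sets tested, and of the 13333 genes named by them, are described here. The arrays measured root sections of Col-0 seedlings in an inducible system for lateral roots. All seedlings germinated on 10 µM NPA, an inhibitor of polar auxin transport, and were 3 days past germination at the start of treatment. The 5 groups were roots before treatment, naxillin at 50 µM for 2 h, NAA at 10 µM for 2 h, naxillin at 50 µM for 6 h and NAA at 10 µM for 6 h. Naxillin is described by the submitters as an inducer of lateral roots that does not act like an auxin. Each group held 3 arrays from independent experiments, each array from 500 pooled sections without meristems. The labels do not state whether arrays with the same replicate number in different groups come from the same experiment. No roots moved to medium without a compound were among the arrays, so in any comparison with roots before treatment the compound, the transfer and the elapsed time cannot be told apart. Naxillin and NAA roots of the same time share the transfer and the time but not the dose.

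WRKY proteins are plant transcription factors that bind the W-box, a DNA element common in promoters of defence and stress genes. WRKY22 is known as a late step of the MAP kinase cascade that follows recognition of bacterial flagellin, WRKY53 as a regulator of leaf senescence, and WRKY6 as a regulator of senescence, pathogen response and phosphate transport. Calmodulin-like proteins carry EF-hand motifs that bind calcium, and calcium in the cytosol rises within seconds of touch or wounding. CML37 and CML38 are induced by wounding, and CML38 also by low oxygen.

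The deposited values were log2 expression values per probe set, so a difference of 1 is a factor of 2. Array medians lay between 7.08 and 7.18, and replicates of a group correlated across probe sets at 0.984 to 0.9959. The lower quartile of an array lay between 4.69 and 4.80, and CML37 stood below it on 13 of 15 arrays. Its differences are differences of dim signals, not measured folds. The other genes were above that quartile on all 15 arrays. WRKY53 (5.26 to 5.53) and CML38 (5.25 to 5.50) before treatment were nevertheless low, near the floor of 5.5 that a filter on mean signal set. WRKY53 was also near it in naxillin roots, at 5.49 to 5.80 at 2 h and 5.39 to 5.43 at 6 h. Folds over or below those levels are approximate. The filter uses the mean over all 15 arrays, which for WRKY53 includes the high NAA arrays. The 3′ minus 5′ signal of the GAPDH control, a sign of RNA degradation, ran from −0.20 to 0.25 log2 units over all arrays, with 0.15 to 0.25 before treatment, and that of the Actin control from 2.42 to 2.93 on all arrays. Actin was 2.50 to 2.63 with naxillin and 2.70 to 2.75 with NAA at 6 h, without overlap. At 2 h these ranges overlapped (2.42 to 2.70 and 2.62 to 2.93). GAPDH lay below its range before treatment with naxillin at 2 h (0.01 to 0.08) and with NAA at both times, but not with naxillin at 6 h. The part of RNA quality in the differences was not tested. Named probe sets were found for 1 of 7 root markers (EXPA7 of root hairs), 2 of 6 photosynthesis markers (RCA and LHCB4.2) and 0 of 3 root meristem markers. RCA, which encodes Rubisco activase, stood at 11.08 ± 0.19 before treatment (SD, n = 3), so a photosynthesis transcript was readily measured in these root sections. In bulk samples, fewer cells of a type and less RNA per cell cannot be told apart.

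**Figure D1:**
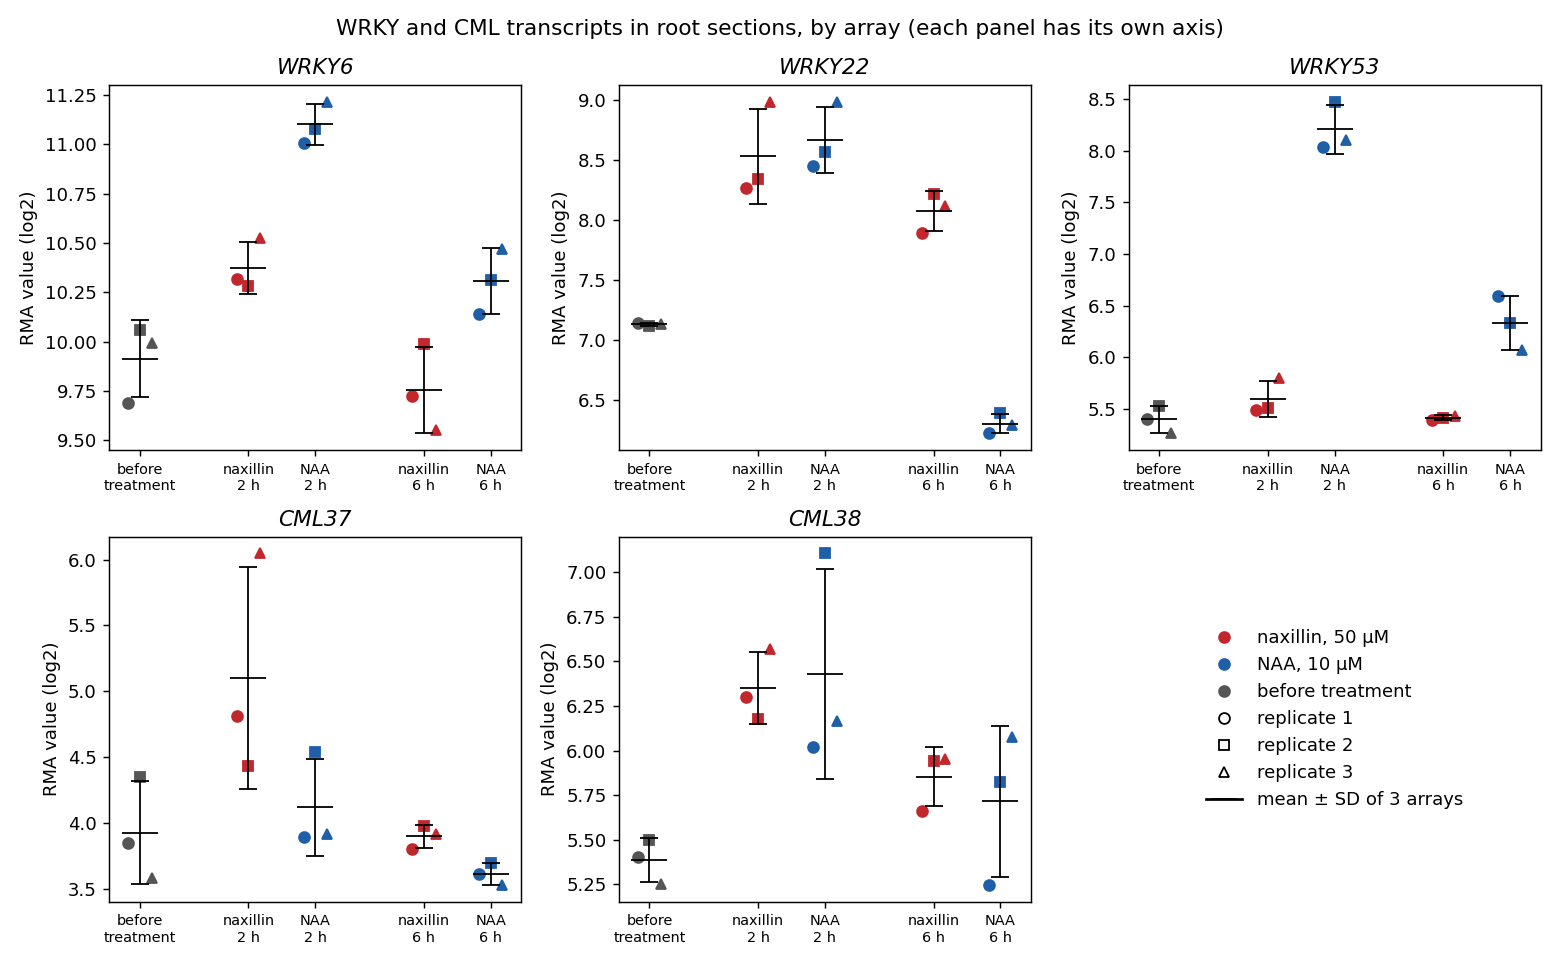
RMA values on the log2 scale of WRKY6, WRKY22, WRKY53, CML37 and CML38 on each of the 15 arrays, grouped as before treatment, naxillin and NAA at 2 h, and naxillin and NAA at 6 h; symbols mark the replicate number and black bars the mean ± SD of 3 arrays. WRKY53 stood at 8.03 to 8.48 with NAA at 2 h, above every other group, and WRKY22 at 6.23 to 6.39 with NAA at 6 h, below every other group.

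WRKY53 had the largest difference between the compounds at 2 h among the 5 genes, with a high level in NAA roots alone. Before treatment its 3 arrays read 5.40, 5.53 and 5.26. At 2 h it had 5.49, 5.51 and 5.80 in naxillin roots, against 8.03, 8.48 and 8.11 in NAA roots. By 6 h WRKY53 had 5.39, 5.41 and 5.43 in naxillin roots, against 6.59, 6.33 and 6.07 in NAA roots. All 6 NAA arrays lay above all 9 others, while naxillin roots at both times overlapped with roots before treatment. Naxillin minus NAA was −2.61 log2 units at 2 h (SE 0.14, limma adjusted p = 3.78e-08). That is a 6.09-fold lower level in naxillin roots, approximate because their signal was near the floor of the filter. At 6 h the gap was −0.92 (SE 0.14, adjusted p = 8.28e-05). Against roots before treatment, WRKY53 rose 7.01-fold with NAA at 2 h (log2 2.81, SE 0.14, adjusted p = 1.32e-08). It was still 1.91-fold higher at 6 h (log2 0.93, adjusted p = 7.09e-05). Naxillin gave 0.20 at 2 h (95% interval −0.11 to 0.51, adjusted p = 0.446) and 0.02 at 6 h (−0.29 to 0.32, adjusted p = 0.977). In NAA roots it fell by 1.88 log2 units at 6 h relative to 2 h (SE 0.14, adjusted p = 2.81e-07). In rank, it had the 65th lowest difference of naxillin minus NAA at 2 h among the 22746 probe sets.

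WRKY6 was also lower in naxillin roots than in NAA roots at both times, by a smaller amount. Before treatment the arrays read 9.69, 10.06 and 9.99. At 2 h the gene had 10.32, 10.28 and 10.52 in naxillin roots, against 11.01, 11.08 and 11.22 in NAA roots. By 6 h WRKY6 had 9.72, 9.99 and 9.55 in naxillin roots, against 10.14, 10.31 and 10.47 in NAA roots. The compounds did not overlap at either time. NAA at 6 h and naxillin at 2 h, neighbours in the order of means at 10.31 and 10.37, did overlap, as did the 2 lowest groups, roots before treatment and naxillin roots at 6 h. Naxillin minus NAA was −0.73 at 2 h (SE 0.13, adjusted p = 0.00165) and −0.55 at 6 h (SE 0.13, adjusted p = 0.00261). With NAA, WRKY6 was 2.28-fold higher than before treatment at 2 h (log2 1.19, adjusted p = 2.21e-05) and 1.31-fold higher at 6 h (log2 0.39, adjusted p = 0.0213). The rise at 6 h was no longer called without replicate 1 before treatment (log2 0.28, adjusted p = 0.108), or without NAA 6 h replicate 2 (0.0503) or 3 (0.0952). The smaller rise with naxillin at 2 h (log2 0.46, SE 0.13, adjusted p = 0.041) was lost on leaving out any of the 6 arrays compared, with adjusted p from 0.0567 to 0.149. It was also lost without NAA 2 h replicate 2 (0.0507), naxillin 6 h replicate 1 (0.056) or NAA 6 h replicate 2 (0.0539), which change only the shared estimate of the spread. At 6 h of naxillin the difference from roots before treatment was −0.16 (95% interval −0.44 to 0.12, adjusted p = 0.653).

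WRKY22 did not differ detectably between the compounds at 2 h and parted at 6 h. Its arrays before treatment were nearly equal, at 7.15, 7.12 and 7.13. At 2 h WRKY22 had 8.27, 8.34 and 8.99 in naxillin roots, against 8.45, 8.57 and 8.99 in NAA roots. By 6 h WRKY22 had 7.89, 8.22 and 8.12 in naxillin roots, against 6.23, 6.39 and 6.29 in NAA roots. The groups at 2 h interleave and lie above naxillin roots at 6 h, while those at 6 h lie on either side of the level before treatment. Naxillin minus NAA was −0.14 at 2 h (95% interval −0.51 to 0.24, adjusted p = 0.701) and 1.77 at 6 h (1.40 to 2.14, SE 0.17, adjusted p = 1.01e-06), a 3.41-fold higher level in naxillin roots. Without NAA 2 h replicate 3 the value at 2 h was 0.02. WRKY22 rose at 2 h with both compounds, 2.64-fold with naxillin (log2 1.40, adjusted p = 0.000401) and 2.90-fold with NAA (log2 1.54, adjusted p = 2.43e-05), in comparisons that share the arrays before treatment. At 6 h it was 1.92-fold higher with naxillin (log2 0.94, adjusted p = 0.0212) and lower with NAA, at 0.56 of the level before treatment (log2 −0.83, adjusted p = 0.000944). The call with naxillin at 6 h was lost without replicate 2 or 3 before treatment (0.0846 and 0.0812) and without naxillin 6 h replicate 2 or 3 (0.0707 and 0.0634). At 6 h relative to 2 h, WRKY22 was 5.15-fold lower in NAA roots (log2 −2.36, adjusted p = 1.91e-07), and its change in naxillin roots was −0.46 (95% interval −0.83 to −0.09, adjusted p = 0.22), which was called with array weights (−0.56, adjusted p = 0.00799).

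CML37 was dim and, with naxillin at 2 h, varied most between replicates of all 5 genes (SD 0.84). Before treatment it read 3.85, 4.35 and 3.58. At 2 h CML37 had 4.82, 4.43 and 6.05 in naxillin roots, against 3.89, 4.54 and 3.92 in NAA roots. By 6 h CML37 had 3.80, 3.98 and 3.91 in naxillin roots, against 3.61, 3.70 and 3.53 in NAA roots. Naxillin at 2 h held the highest array by a wide margin, and its lowest array lay within the range of NAA at 2 h. Naxillin minus NAA was 0.98 at 2 h (95% interval 0.29 to 1.67, adjusted p = 0.0522), just short of a call. It was 0.51 (adjusted p = 0.153) without naxillin 2 h replicate 3, and 1.32 (adjusted p = 0.0132) without naxillin 2 h replicate 2. It was also called without NAA 2 h replicate 2 (1.19, adjusted p = 0.0364), and without replicate 2 before treatment (adjusted p = 0.0497), at an unchanged difference. With the replicate number as a further term in the fit, the same difference was called (adjusted p = 0.0496). At 6 h it was 0.29 (−0.40 to 0.98, adjusted p = 0.515). That was called when only those 6 arrays were fitted (adjusted p = 0.0314), and was −0.03 with poly-A spike-in scaling. CML37 rose against roots before treatment with naxillin at 2 h (log2 1.17, SE 0.32, adjusted p = 0.0341). Without naxillin 2 h replicate 3 the difference was 0.70 (adjusted p = 0.0894), and the call was also lost without replicate 1 (0.0834) or 3 (0.123) before treatment, and with only those 6 arrays (0.114). Differences from before treatment were not called with NAA at 2 h (0.19, adjusted p = 0.743), naxillin at 6 h (−0.03, 0.981) or NAA at 6 h (−0.32, 0.453). Naxillin at 6 h minus 2 h gave −1.20 (95% interval −1.89 to −0.51, adjusted p = 0.0723). It was called without naxillin 2 h replicate 2 (−1.53, 0.0396), with array weights (−1.07, 0.00792) and with poly-A spike-in scaling (−1.32, 0.0464), and was −0.73 (0.184) without naxillin 2 h replicate 3. NAA at 6 h minus 2 h gave −0.51 (adjusted p = 0.239), called when only those 6 arrays were fitted (0.0474).

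CML38 was not called between the compounds at either time. Before treatment it read 5.40, 5.50 and 5.25. At 2 h CML38 had 6.30, 6.18 and 6.57 in naxillin roots, against 6.02, 7.11 and 6.16 in NAA roots. By 6 h CML38 had 5.66, 5.94 and 5.95 in naxillin roots, against 5.24, 5.82 and 6.08 in NAA roots. The compounds overlapped at both times, and at 2 h every treated array was above every array before treatment. The difference of naxillin minus NAA was −0.08 at 2 h (95% interval −0.62 to 0.46, adjusted p = 0.895) and 0.14 at 6 h (−0.40 to 0.68, adjusted p = 0.709). These intervals do not show that the levels were equal, and both values changed sign in some settings listed in the closing section. CML38 rose 1.95-fold over roots before treatment with naxillin at 2 h (log2 0.97, SE 0.25, adjusted p = 0.0285) and 2.06-fold with NAA (log2 1.05, SE 0.25, adjusted p = 0.00744). The naxillin call was lost on leaving out any of the 6 arrays compared (adjusted p 0.0503 to 0.105), whereas the NAA call held without each of the 15 arrays in turn (up to 0.03). At 6 h neither naxillin (0.47, adjusted p = 0.452) nor NAA (0.33, adjusted p = 0.308) was called, and NAA was called with poly-A spike-in scaling (0.65, 0.0426). CML38 in naxillin roots at 6 h minus 2 h gave −0.50 (adjusted p = 0.402), called with array weights (−0.60, 0.0435). With NAA at 6 h relative to 2 h CML38 fell by 0.72 log2 units (adjusted p = 0.0345), with groups that overlap. That fall was not called without NAA 2 h replicate 2 (−0.38, adjusted p = 0.171), without NAA 6 h replicate 1 (−0.48, 0.168) or 2 (−0.77, 0.0532), with poly-A spike-in scaling (−0.53, 0.117), or with only those 6 arrays (0.103).

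The 5 genes were picked with earlier results of these data known, so their counts and medians describe them and test nothing. Counted together, naxillin against NAA at 2 h gave 0 of the 5 genes higher and 2 lower, WRKY6 and WRKY53. Over all probe sets 16.1% were called in that comparison, 7.39% higher and 8.68% lower. At 6 h 1 was higher, WRKY22, and 2 were lower, WRKY6 and WRKY53, beside 50.6% of all probe sets called, 27.2% higher and 23.5% lower. With calls this frequent at 6 h, 3 of 5 is near the background. The median difference of the 5 genes was −0.14 at 2 h and 0.14 at 6 h, and that of all probe sets 0.02 at both times. Markers of other cells moved as well: at 6 h EXPA7 was 1.94, RCA 1.58 and LHCB4.2 2.41 log2 units higher in naxillin roots than in NAA roots, and at 2 h none of the 3 was called. Their part in the WRKY differences was not tested.

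Against roots before treatment, 4 of the 5 genes were higher with naxillin at 2 h, all but WRKY53, and 0 were lower (of all probe sets 10.6% called, 4.4% higher and 6.16% lower). Because the 5 genes were picked with such results known, an excess over the share of all probe sets is no finding about them. With NAA at 2 h 4 were higher, all but CML37, and 0 were lower (25.8% called, 10.5% higher and 15.3% lower). At 6 h of naxillin 1 was higher, WRKY22, and 0 were lower (0.963% called, 0.58% higher and 0.382% lower). With NAA at 6 h 2 were higher, WRKY6 and WRKY53, and 1 was lower, WRKY22 (52.1% called, 22.8% higher and 29.4% lower). Medians of the 5 genes were 0.97, 1.19, 0.02 and 0.33 in that order, against −0.03 for all probe sets in each comparison. EXPA7 also rose at 2 h with naxillin (log2 1.57) and with NAA (1.02), while RCA fell by 0.55 and by 0.58 and LHCB4.2 by 1.22 and by 2.29. At 6 h of naxillin none of the 3 was called. With NAA at 6 h all 3 fell, EXPA7 to 5.73 ± 0.22 against 6.87 ± 0.37, RCA by 2.00 and LHCB4.2 by 3.10 log2 units. The part of these markers in the differences of the 5 genes was not tested. At 6 h relative to 2 h, 1 gene fell in naxillin roots, WRKY6 by 0.62 log2 units (adjusted p = 0.0264), where 2.29% of all probe sets were called, 0.813% higher and 1.47% lower. Without naxillin 2 h replicate 2 or 3, or without naxillin 6 h replicate 1 or 3, its adjusted p was 0.0601, 0.117, 0.0916 and 0.0794, and with only those 6 arrays 0.129. In NAA roots 4 fell between the times, all but CML37, where 41.6% were called, 19.9% higher and 21.6% lower. WRKY6 fell by 0.79 (adjusted p = 0.000239). The background of the naxillin comparisons was unstable. Naxillin at 6 h against before treatment had 219 calls in all, but 50 without replicate 2 and 63 without replicate 3 before treatment, 90, 106 and 133 without naxillin 6 h replicate 1, 2 and 3, and 143 without NAA 6 h replicate 1. It had 31 with only those 6 arrays and 2694 with array weights. Naxillin at 6 h against 2 h had 520, but 222 and 198 without naxillin 2 h replicate 2 and 3, 221 without naxillin 6 h replicate 1, 44 with only those 6 arrays and 4579 with array weights. Naxillin at 2 h against before treatment had 2402, but 1131 and 1262 without replicate 2 and 3 before treatment, and 1188 and 1176 without naxillin 2 h replicate 2 and 3.

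The difference between compounds changed with time for 2 of the 5 genes, tested as the interaction of compound and time on the treated groups. The gap of naxillin minus NAA was 1.91 log2 units higher at 6 h than at 2 h for WRKY22 (SE 0.24, adjusted p = 7.78e-05) and 1.69 higher for WRKY53 (SE 0.20, adjusted p = 4.54e-05). For WRKY22 the gap opened from near zero, and for WRKY53 a gap below zero narrowed. Across all probe sets the interaction was called for 30.3%, higher for 15.1% and lower for 15.2%. A count of 2 of 5 is near the share called in either direction. WRKY6 (0.17, 95% interval −0.23 to 0.57, adjusted p = 0.557), CML37 (−0.70, −1.67 to 0.28, adjusted p = 0.292) and CML38 (0.22, −0.55 to 0.99, adjusted p = 0.719) were not called. WRKY6 and CML38 turned to −0.13 and −0.09 with poly-A spike-in scaling.

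Values at 6 h of NAA are relative to the middle of the array. Bacterial control transcripts had been spiked into equal amounts of total RNA, and levelling the arrays on their 12 probe sets (called poly-A spike-in scaling here) moved the median of all probe sets to 0.29 for NAA at 6 h against before treatment and to −0.30 for naxillin against NAA at 6 h. On that scale WRKY22 was 1.46 higher in naxillin roots than in NAA roots at 6 h, and the differences were −1.23 for WRKY53 and −0.87 for WRKY6, so that the 3 calls and their directions held. For NAA at 6 h against before treatment, WRKY22 was at −0.50 (adjusted p = 0.0257) on that scale in place of −0.83, and WRKY6 at 0.72 (0.000313) in place of 0.39.

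Other WRKY genes were mostly out of sight. Of 72 WRKY genes in the RefSeq annotation, 7 had a named probe set, and 4 of these are not among the 5 genes. At 2 h 2 of the 4 were lower in naxillin roots than in NAA roots, WRKY47 with a difference of −0.44 (8.51 ± 0.08 against 8.96 ± 0.12, adjusted p = 0.00858) and WRKY20 with −0.43 (8.44 ± 0.05 against 8.87 ± 0.21, adjusted p = 0.03). ZAP1 (WRKY1) and WRKY42 were at −0.06 and 0.01, neither called. At 6 h 2 were higher and 1 lower. WRKY42, which like WRKY6 is known to repress the phosphate exporter gene PHO1, was higher by 0.97 (6.32 ± 0.17 against 5.36 ± 0.04, adjusted p = 2.25e-05). ZAP1 was higher by 0.37 (adjusted p = 0.00555) and WRKY20 was lower (−0.58, adjusted p = 0.0013). The interaction was called higher for WRKY42 (0.96, adjusted p = 0.00149), WRKY47 (0.61, adjusted p = 0.0056) and ZAP1 (0.43, adjusted p = 0.03). The median of the 4 genes was −0.25 at 2 h and 0.27 at 6 h, against 0.02 for all probe sets at both times. Of all probe sets 16.1% were called at 2 h, 50.6% at 6 h and 30.3% for the interaction. Counts over 4 genes are too few to be set apart from these shares.

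Against roots before treatment, 0 of these 4 WRKY genes rose at 2 h with either compound, and WRKY47 fell with naxillin (−0.41, adjusted p = 0.0249). None was called at 6 h of naxillin. At 6 h of NAA 3 of the 4 fell, WRKY42 by 0.70, ZAP1 by 0.62 and WRKY47 by 0.54 log2 units. Of all probe sets 10.6% were called with naxillin and 25.8% with NAA at 2 h. At 6 h 0.963% were called with naxillin and 52.1% with NAA, of which 29.4% of all were lower. Counts over 4 genes are too few to be set apart from these shares. Among WRKY genes with a named probe set, those called higher at 2 h were thus WRKY6 and WRKY22 with naxillin, and these and WRKY53 with NAA. The 3 were picked with such results known.

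**Figure D2:**
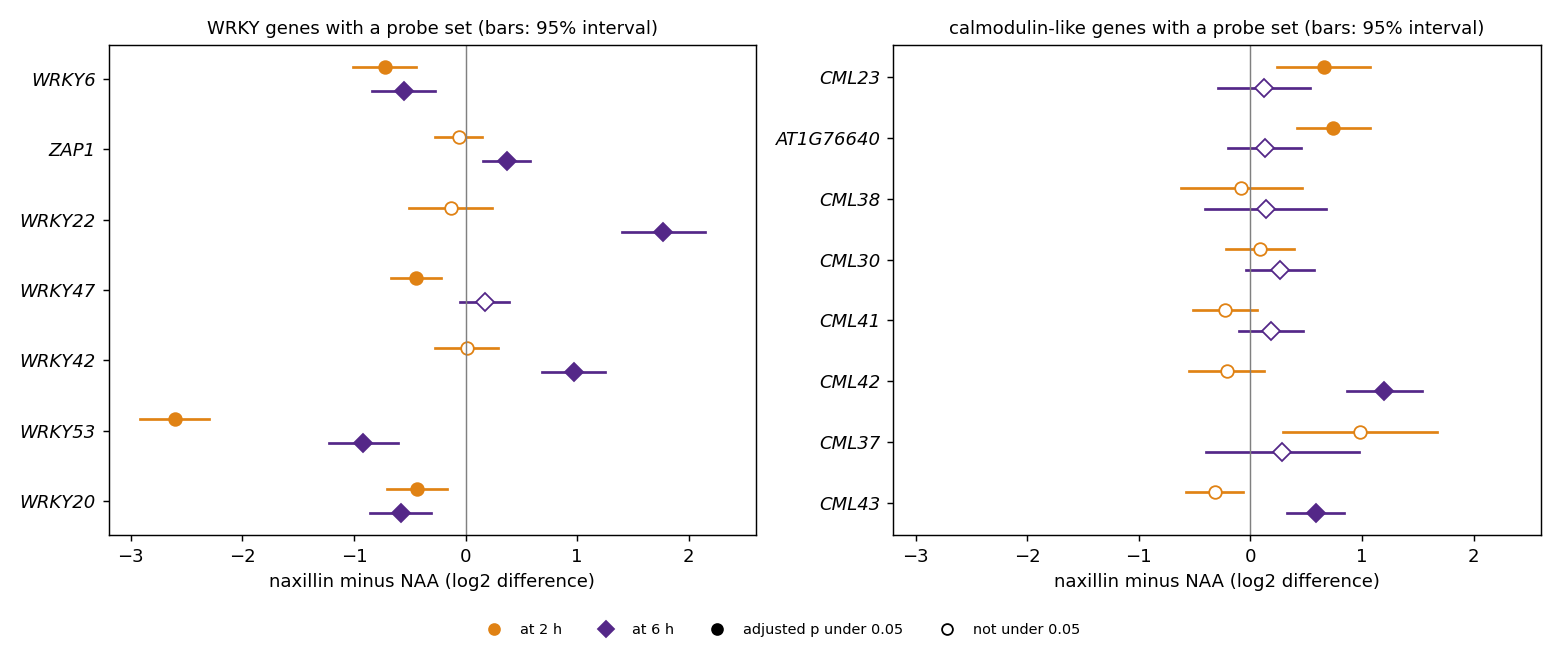
Differences of naxillin minus NAA in log2 units at 2 h (circles) and 6 h (diamonds) with 95% intervals, for the 7 WRKY genes (left) and the 8 calmodulin-like genes (right) with a named probe set; filled symbols have an adjusted p under 0.05. WRKY53 at 2 h (−2.61) and WRKY22 at 6 h (1.77) lie farthest from zero.

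Of 22 genes whose RefSeq symbol or synonym matched a calmodulin or calmodulin-like name, 8 had a named probe set. The 22 include GAMMA CAL2, a carbonic anhydrase-like gene matched by a synonym, which had no named probe set. Genes of the family without such a name were not searched. Of the 8, 6 were genes other than CML37 and CML38. At 2 h 2 of the 6 were higher in naxillin roots than in NAA roots. AT1G76640, whose RefSeq synonym is CML39 and which lies next to CML38 on chromosome 1, was at 5.35 ± 0.36 in naxillin roots and 4.61 ± 0.13 in NAA roots (log2 difference 0.74, adjusted p = 0.00395). CML23 was at 6.82 ± 0.21 in naxillin roots and 6.17 ± 0.44 in NAA roots (0.66, adjusted p = 0.0316). Both sides of the AT1G76640 comparison are close to the lower quartile of the arrays. At 6 h 2 others were higher, CML42 by 1.20 (9.48 ± 0.25 against 8.28 ± 0.14, adjusted p = 1.53e-05) and CML43 by 0.59 (adjusted p = 0.000759), and 0 of the 6 were lower at either time. Of all probe sets 7.39% were called higher and 8.68% lower at 2 h, and 27.2% higher and 23.5% lower at 6 h. Counts over 6 genes are too few to be set apart from these shares.

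Against roots before treatment, 3 rose with naxillin at 2 h, CML23 by 0.76 log2 units, CML42 by 0.64 and AT1G76640 by 0.64, and CML43 fell (−0.76, adjusted p = 0.00176). With NAA at 2 h CML42 rose (0.85, adjusted p = 0.00126), and CML43 (−0.44) and CML30 (−0.43) fell. At 6 h of naxillin none was called, and at 6 h of NAA 0 rose and 3 fell, CML42 by 0.86. Of all probe sets 10.6% were called with naxillin and 25.8% with NAA at 2 h, and 0.963% and 52.1% at 6 h. The counts of these 6 genes are too few to be set apart from those shares. The median of the 6 was 0.22 with naxillin and −0.03 with NAA at 2 h. CML42 shared several calls with WRKY22. It rose with either compound at 2 h, fell with 6 h of NAA, and its difference between the compounds was higher at 6 h than at 2 h (interaction 1.41, adjusted p = 0.000334). Unlike WRKY22 it was not called at 6 h of naxillin.

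Genes of the early touch and wound response could hardly be counted. Of 25 listed, 3 had a named probe set. EXO, known from brassinosteroid-dependent growth, was at 6.77 ± 0.08 in naxillin roots and 7.88 ± 0.15 in NAA roots at 2 h (−1.11, adjusted p = 0.00168), and the gap was −1.92 at 6 h (adjusted p = 2.04e-06). EXO rose with NAA over roots before treatment at both times, to 7.88 ± 0.15 at 2 h and 8.13 ± 0.49 at 6 h, against 6.38 ± 0.30 (adjusted p = 0.000112 and 4.88e-06). ZAT10, a zinc finger repressor of the stress response, stood at 8.78 ± 0.09 in naxillin roots and 9.77 ± 0.52 in NAA roots at 2 h and was not called (adjusted p = 0.0888). Its arrays before treatment spread from 8.27 to 9.96. ZAT10 was lower at 6 h than at 2 h of NAA (−1.28, adjusted p = 0.012), where 41.6% of all probe sets were called. In naxillin roots that change was −0.49 (adjusted p = 0.626). ORA47 was not called in any comparison against roots before treatment or between the compounds. Of 26 genes of jasmonate synthesis and JAZ repressors only OPCL1 had a named probe set, with 0 calls in the same comparisons (−0.26 between compounds at 2 h, adjusted p = 0.59). Of 14 hypoxia genes only HRA1, an attenuator of the hypoxia response, had a named probe set. HRA1 fell with naxillin at 2 h against before treatment (−0.59, adjusted p = 0.0367), and NAA at 2 h gave −0.23 (0.374). It was higher in naxillin roots than in NAA roots at 6 h (0.45, 0.0315), and in naxillin roots higher at 6 h than at 2 h (0.79, 0.0234), with an interaction of 0.81 (0.0158).

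Some arrays stood high or low in their group for several of the genes. Naxillin 2 h replicate 3 was the highest of its group for all 5 genes, by 0.15 to 0.95 log2 units above the group mean. Over all probe sets that array was the highest of its group for 31.2%. NAA 2 h replicate 1 was the lowest of its group for all 5, where it was lowest for 26.7% of all probe sets. Replicate 2 was the highest before treatment for 4 of 5, and for 36.6% of all probe sets. Without naxillin 2 h replicate 3, the rises of WRKY6, CML37 and CML38 with naxillin at 2 h were no longer called, while that of WRKY22 was.

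**Figure D3:**
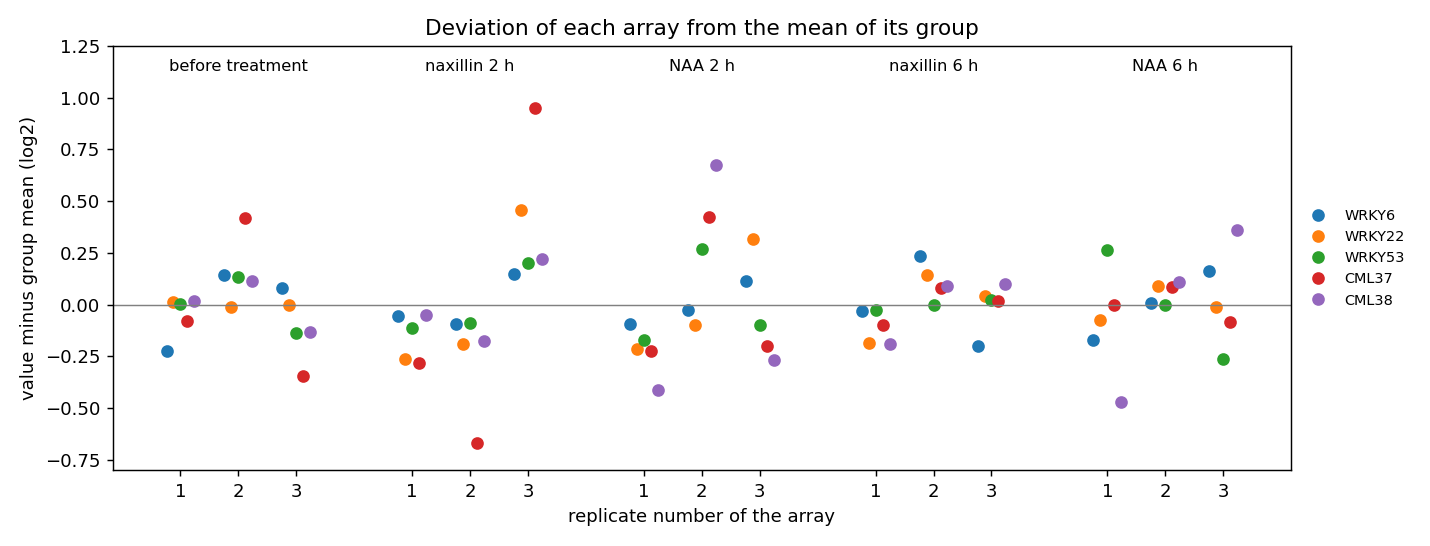
Deviation of each array from the mean of its group in log2 units for the 5 genes (colours), by group and replicate number. Naxillin 2 h replicate 3 lies above its group mean for all 5 genes, with CML37 at 0.95.

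The genes most like each of the 5 were taken from 13483 compared probe sets by Pearson's r over the 15 arrays. These arrays share the 5 groups, so r is a description. WRKY53 was most like HAT2 (r = 0.965), a homeodomain gene known to be induced by auxin, then AT1G23340 (0.957) and AT5G14730 (0.951). HAT2 stood at 8.59 ± 0.06 and 10.70 ± 0.12 in naxillin and NAA roots at 2 h. WRKY6 was most like AT1G74750 (0.926), AT1G23340 (0.92) and AT4G01110 (0.918), so that AT1G23340 was shared by both. WRKY22 had the closest match of all, AT1G80450 (0.97), followed by AT4G24160 (0.959) and GTR1 (0.951), which encodes a glucosinolate transporter. AT1G80450 was at 7.97 ± 0.17 in naxillin roots and 5.94 ± 0.14 in NAA roots at 6 h. CML37 was most like AT1G07160 (0.905), AT1G76640 (0.893) and AT1G51090 (0.89), of which the middle one is the neighbour of CML38. CML38 itself was most like AT2G38240 (0.941), AT2G34930 (0.94) and AT2G18190 (0.881). None of the 5 genes was among the 3 most like another of them.

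**Figure D4:**
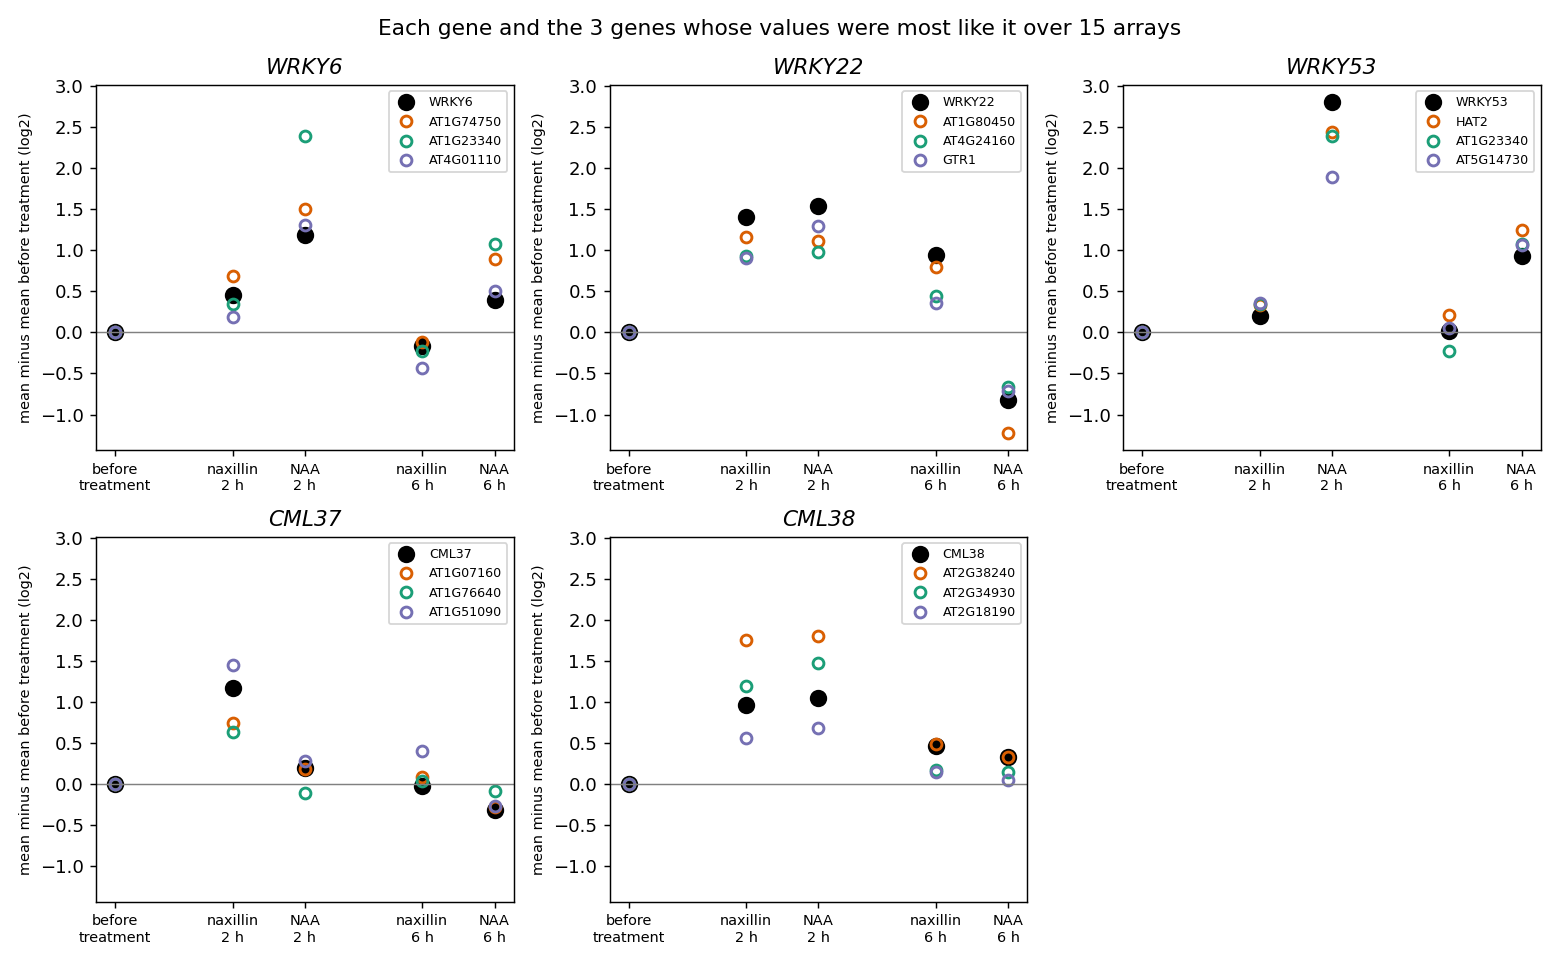
Group means minus the mean before treatment (log2 units) of each of the 5 genes (filled) and of the 3 genes most like it over 15 arrays (open), for naxillin and NAA at 2 h and 6 h. HAT2 and WRKY53 stand highest with NAA at 2 h and next highest with NAA at 6 h, and AT1G80450 and WRKY22 stand above zero in 3 treated groups and below it with NAA at 6 h.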

How the data were processed

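The authors deposited log2 expression values of ATH1 probe sets for each array, made with RMA (affy 1.36.0), per the submitters' processing notes. RMA corrects background, makes the arrays' distributions equal and summarises probe sets, so a change shared by most genes is hidden. Filters are not given in the sources used here.

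The 15 arrays were grouped by their titles, as biological replicates. After removal of 64 control probe sets, limma 3.58.1 (R 4.3.3) estimated 1 mean per group from every array, with 10 residual degrees of freedom. Its moderated test was two-sided. Benjamini-Hochberg adjustment ran over 22746 probe sets, and a gene was called at an adjusted p under 0.05. With 3 arrays per group, precision is limited. Alternatives were the scaling, a filter on dim probe sets, array weights, stricter thresholds, fits to the compared arrays alone, the replicate block and leaving out each array.

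In 5 simulated data sets for naxillin against NAA at 2 h (200 of 22746 probe sets changed), 44% of log2 changes of 0.5, 89% of 1 and 100.0% of 2 were recovered. False calls made up 6.28% of calls. The share changed was far below the 16.1% of probe sets called in that comparison, and the simulated noise was independent between arrays. These rates therefore need not hold for the calls made here.

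Probe sets were named where the platform table gave 1 gene (13513), matched to RefSeq locus tags. A further 503 had several genes and 8730 none. The 5 genes and the lists were chosen with earlier results of these data known. Other genes named are, per list and comparison, up to 2 called genes with the largest change, the 3 genes most like each of the 5, and a few list members named after their values were seen. Matplotlib 3.10.9 in Python 3.11.15 drew the figures.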

Additional observations from a re-analysis of the deposited data

Results flagged for a closer look

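The effect of compound differed between the times for 2 genes, by the interaction test. The difference of naxillin minus NAA at 6 h, minus that at 2 h, was 1.91 log2 units for WRKY22 and 1.69 for WRKY53. Without any 1 of the 15 arrays these values ran from 1.75 to 2.13 and from 1.56 to 1.82, with adjusted p up to 0.000358 and 0.00022.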

How the results depend on the processing

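The 45 differences of the 5 genes gave 1116 values across 25 settings. Of these, 56 lost a call, 12 gained one and 16 uncalled ones changed sign. The 1032 that kept direction and call do not measure robustness, as stricter thresholds or leaving out an array not compared cannot change a difference. In all settings 4 genes were called for NAA 2 h against before treatment and 2 for the interaction. The main fit called 5858 and 6898 of 22746 probe sets there. With at least 2-fold required, the count was 1 for naxillin against NAA at 2 h and 1 at 6 h, 2 for naxillin 2 h, 0 for naxillin 6 h and 0 for NAA 6 h against before treatment, 0 for naxillin 6 h against 2 h and 2 for NAA 6 h against 2 h. At an adjusted p under 0.01, 1 of the 5 genes was called for naxillin 2 h against before treatment (778 of all probe sets). There, 0 were called for naxillin 6 h against before treatment (39) and 0 against 2 h (120). With only the arrays of the comparison, 2 were called for naxillin 2 h against before treatment and 0 for naxillin 6 h against 2 h; for the last, array weights gave 4 and poly-A spike-in scaling 2. Without 1 array the count was 1 to 4 for naxillin 2 h, 0 or 1 for naxillin 6 h against before treatment, and 0 or 1 for naxillin 6 h against 2 h. Signs turned as follows. For naxillin against NAA, CML38 was −0.29 to 0.26 at 2 h and −0.10 to 0.32 at 6 h with 1 array left out, and −0.18 at 6 h with poly-A spike-in scaling. WRKY22 was −0.36 to 0.0221 at 2 h with 1 array left out, and CML37 −0.0288 at 6 h with poly-A spike-in scaling. Against before treatment, CML37 was −0.20 to 0.18 for naxillin 6 h and −0.0212 to 0.40 for NAA 2 h with 1 array left out, 0.0299 for naxillin 6 h with median centring and 0.00825 for NAA 6 h with poly-A spike-in scaling; WRKY53 was −0.0528 to 0.0815 for naxillin 6 h. The interaction of CML38 was −0.12 to 0.42 with 1 array left out and −0.0884 with poly-A spike-in scaling, and that of WRKY6 −0.13 there. The cause was not tested. Without dim probe sets 15164 remained and CML37 was not among them.

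Poly-A spike-in scaling also turned the split of all calls. It gave 3548 higher and 12113 lower for naxillin against NAA at 6 h, against 6177 and 5334 as deposited. Against before treatment it gave 1481 and 448 for naxillin 2 h (1001 and 1401 as deposited), 3395 and 1934 for NAA 2 h (2389 and 3469) and 12063 and 3922 for NAA 6 h (5181 and 6677). Over time it gave 73 and 695 for naxillin (185 and 335) and 8059 and 3035 for NAA (4537 and 4917), and for the interaction 1553 and 7960 (3437 and 3461). Median centring gave 1154 and 797 for naxillin 2 h and 206 and 56 for naxillin 6 h against before treatment (132 and 87 as deposited), where a further quantile normalization gave 173 and 66.

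Over all probe sets 219 calls became 31 with only the compared arrays and 2694 with array weights for naxillin 6 h against before treatment, and 520 became 44 and 4579 against 2 h.

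With the replicate number as a replicate block, 3 of the 5 genes were called for naxillin against NAA at 2 h. CML37 was among them (adjusted p = 0.0496), beside 4838 of all probe sets (3657 without the block). Other comparisons kept their counts. In all, 523 were called for naxillin 6 h against before treatment and 1048 against 2 h. Deviations of same-numbered arrays correlated above 0.1 in 23 of 30 pairs (median 0.221), against 11 of 60 pairs with other numbers (median −0.136), and 11 of 15 arrays correlated best with their own number. This hints at shared replicate sets, but not every pair passed 0.1 and the labels do not state it, so the block stayed an alternative.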
